A study of Mus musculus with 13 samples.

Results

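The integrated stress response genes described here are 41 genes induced by, or acting around, the transcription factor ATF4. They were chosen by symbol among the 38377 gene identifiers of a mouse bulk RNA-seq count table, and all 41 were found and passed the filter on low counts in every fit. By role they are 7 transcription factors, 7 feedback and stress effectors, 11 enzymes of amino acid synthesis and one-carbon metabolism, 6 amino acid transporters, and 10 genes of tRNA charging and tRNA export. The levels were followed across 13 libraries in 6 groups, all from female cells. XEN cells, the stem cells of the extraembryonic endoderm, were grown in DMEM with serum and non-essential amino acids and were wild type (WT, 2 libraries) or carried a deletion of the paternal Xist allele (dXist, 3 libraries). Treated XEN groups of both genotypes had received 20 uM 5-aza-2'-deoxycytidine (Aza, 2 libraries each), a nucleoside that blocks DNA methylation. Epiblast stem cells (EpiSC), grown on matrigel in knockout DMEM with FGF2 and Activin, were wild type (2 libraries) or heterozygous for an Xist deletion (2 libraries). The labels do not say whether libraries of a group came from separate clones or cultures. Every p-value here therefore reflects only the spread between libraries, estimated in part from other genes, and not a known spread between cultures.

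In the integrated stress response, kinases that sense amino acid shortage, unfolded protein in the endoplasmic reticulum, viral RNA or haem shortage phosphorylate the initiation factor eIF2, which slows translation in general while ATF4 mRNA is translated more. ATF4 pairs with C/EBP family partners on C/EBP-ATF response elements and switches on genes for amino acid uptake, synthesis and tRNA charging. Its targets also include Ddit3 (CHOP), which adds a death-promoting arm, and Trib3 and Ppp1r15a (GADD34), which feed back on the response. Because ATF4 is controlled largely at translation, Atf4 mRNA is an incomplete readout of its activity.

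The sequence to which ATF4 binds together with C/EBP partners has the core TGATGNAA. Of the promoters that held it 8 are shown, covering all 5 roles, so that the letters can be read beside the levels of those genes. Of the 41 genes, 35 matched a RefSeq promoter (GRCm38.p6, 250 bases before to 50 after the start). The core, searched on both strands, was present in 13 of the 35 genes (37.1%) and in 1219 of 27025 genes of the whole promoter table (4.51%). Since the members were listed for their link to ATF4, a share above that of all genes is no independent result. By role it was present in 2 of 7 transcription factors, 3 of 7 feedback effectors, 2 of 9 enzymes, 1 of 4 transporters and 5 of 8 tRNA genes. Slc7a11 and Aars each held 2 cores, as did 0.0851% of all genes of the table. Aars, Iars, Trib3 and Yars, which had a core past the start, and Vldlr also held the core and are not shown. Stretches around the core follow, read 5′ to 3′ on the strand of the gene, with the core or its reverse complement in capitals.
Slc7a11: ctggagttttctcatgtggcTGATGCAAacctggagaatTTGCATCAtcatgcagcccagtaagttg
Atf3: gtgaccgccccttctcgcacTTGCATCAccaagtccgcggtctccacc
Nupr1: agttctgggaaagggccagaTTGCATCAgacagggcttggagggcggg
Chac1: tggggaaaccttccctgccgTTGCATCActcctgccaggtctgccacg
Asns: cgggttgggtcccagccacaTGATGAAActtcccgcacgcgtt
Pck2: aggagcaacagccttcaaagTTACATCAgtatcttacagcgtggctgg
Gars: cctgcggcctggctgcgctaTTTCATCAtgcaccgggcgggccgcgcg
Tars: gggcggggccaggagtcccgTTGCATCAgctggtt
These lie at chr3:50443633-50443699 (minus strand) for Slc7a11, chr1:191183416-191183463 (minus) for Atf3, chr7:126625553-126625600 (minus) for Nupr1 and chr2:119351029-119351076 (plus) for Chac1. Those of Asns, Pck2, Gars and Tars are at chr6:7693210-7693252 (minus), chr14:55540143-55540190 (plus), chr6:55037951-55037998 (plus) and chr15:11399659-11399693 (minus). The 2 cores of Slc7a11 begin 66 and 47 bases before the start and face each other on opposite strands. A match describes these letters and no binding was measured.

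Total counts ran from 5848454 to 35247432 per library, and 3 counts correspond to 0.513 CPM in the shallowest library and 0.0851 CPM in the deepest. Both WT Aza XEN libraries, WT EpiSC library 2 and dXist EpiSC library 2 drew 10.4% to 13.5% of counts from mitochondrial ribosomal RNA and Rn7sk, against 0.0152% to 0.279% in the other 9 libraries. The first set is called total-like below and the second polyA-like. Xist stood at 1550 and 1587 CPM in WT XEN and at 2.28, 1.16 and 4.79 CPM in dXist XEN. It stood at 14.6 CPM in the library labelled treated dXist XEN 1 but at 241.8 CPM in the library labelled treated dXist XEN 2. For treatment in dXist XEN, edgeR's count of members called and the median over all members are therefore given with and without that library. Most other values for that treatment include it. The dXist EpiSC libraries had 0.435 and 0.276 CPM of Xist, against 815 and 206 CPM in WT EpiSC. Summed XEN markers were 11360 to 34250 CPM in XEN libraries and 45.1 to 102 CPM in EpiSC libraries. In bulk RNA, fewer cells of a type and less RNA per cell cannot be told apart.

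Deletion of the paternal Xist allele went with higher stress response mRNA in dXist XEN libraries 1 and 2, while dXist XEN library 3 was near WT. Averaged over the 3 libraries, 38 of the 41 members had a positive log2 fold change against WT XEN, with a median of 0.92, beside 50.02% positive and a median of 0.001 over all 18393 genes tested. None of the 41 passed an adjusted p under 0.05 in edgeR's quasi-likelihood test with Benjamini-Hochberg adjustment, and neither did nearly all other genes, of which 0.0217% passed. At an unadjusted p under 0.05 there were 12 members higher, beside 4.72% of genes, and 1 lower, beside 6.01%. DESeq2 called 5 members, all higher, beside 3.2% of genes. Relative to the mean of the WT XEN libraries, the median member stood at 1.36 and 1.32 on the log2 scale in dXist libraries 1 and 2 and at 0.03 in library 3. Libraries 1 and 2 had 38 and 36 members above both WT libraries, and library 3 had 4, where the shares over all genes were 39.9%, 37.1% and 30.5%. The WT libraries also differed from each other, since WT XEN library 2 was above WT XEN library 1 in 40 of the 41 members.

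**Figure D1:**
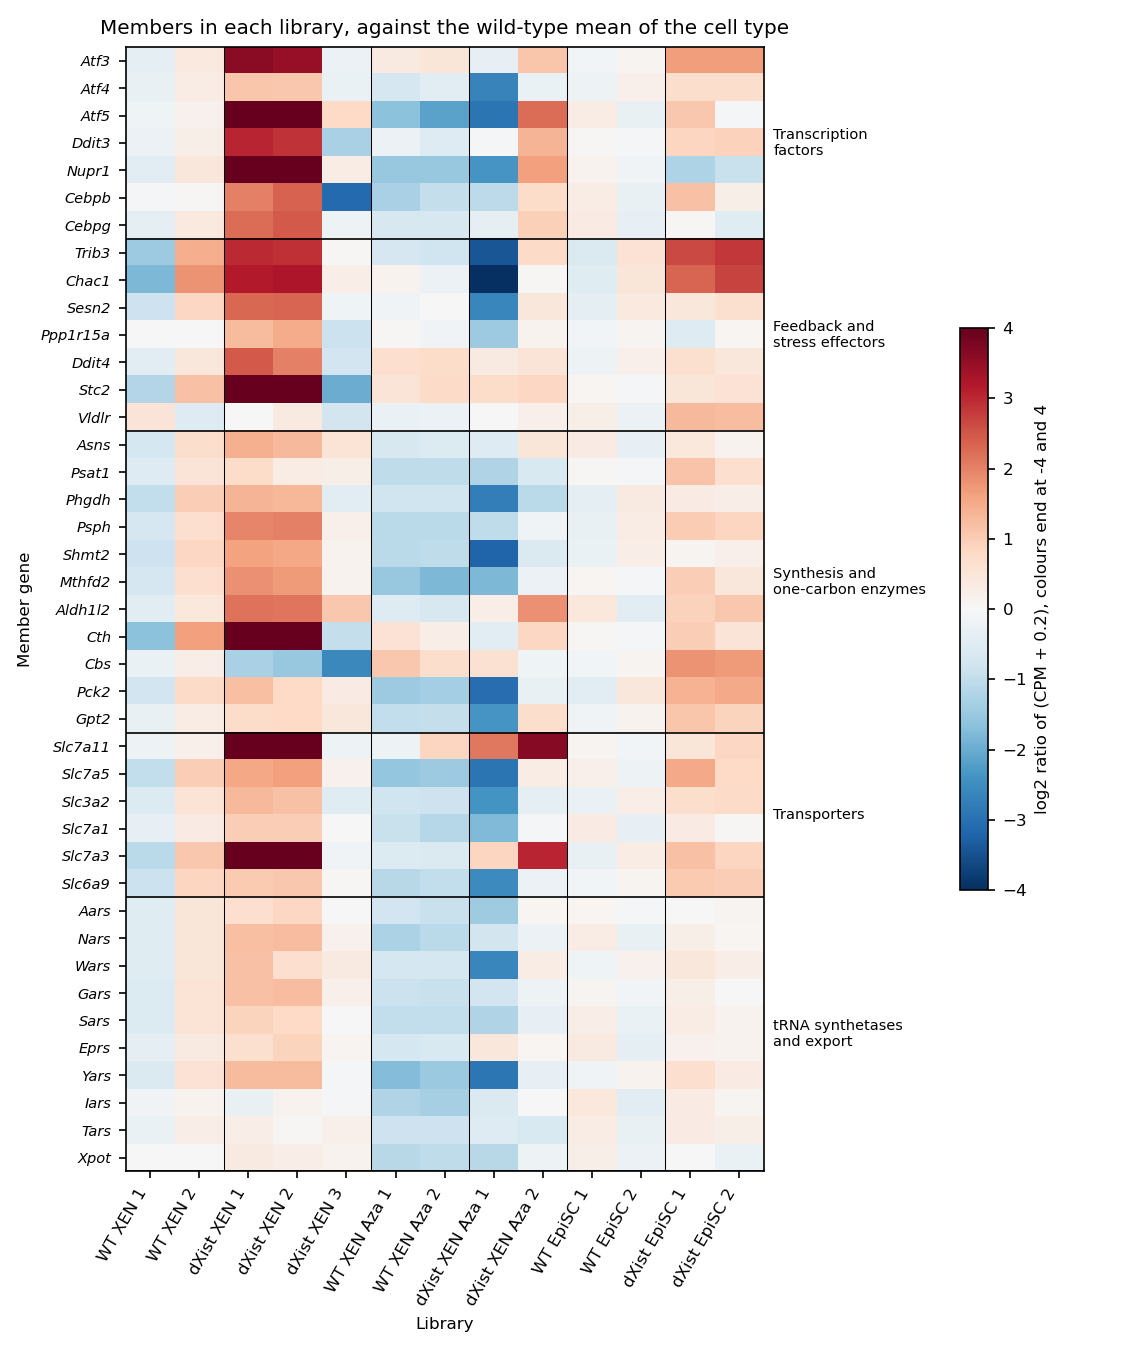
Each cell is the log2 ratio of a member's CPM (0.2 CPM added) in 1 library to the mean of the WT libraries of its cell type, for 41 members by role and 13 libraries by group. The dXist XEN libraries 1 and 2 stand above WT in nearly all members (medians 1.36 and 1.32), while dXist XEN library 3 has a median of 0.03.

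Among the transcription factors in XEN cells all 7 fold changes were positive, with a median of 2.40. Atf5, a factor induced when ATF4 is active, was at 21.4 and 27.1 CPM in WT XEN and at 741, 846 and 42.3 CPM in dXist XEN. Nupr1, a small stress-induced chromatin protein, was at 4.66 and 9.03 CPM in WT XEN and at 163, 204 and 8.01 CPM in dXist XEN. The groups did not overlap for Atf5, whereas dXist library 3 lay between the WT libraries for Nupr1. The log2 fold change was 4.46 ± 1.53 (SE) for Atf5 and 4.17 ± 1.42 for Nupr1, with adjusted p of 0.395 and 0.394 (edgeR, Benjamini-Hochberg). Atf3, a stress-induced repressor, was at 43.7 and 74.8 CPM in WT XEN against 705, 645 and 48.3 CPM, a log2 fold change of 2.95 ± 0.97 (adjusted p = 0.387, edgeR). Ddit3, which encodes CHOP, was at 24.02 and 32.8 CPM against 236, 209.6 and 11.4 CPM, a log2 fold change of 2.40 ± 0.999 (adjusted p = 0.445, edgeR). For Atf3 libraries 1 and 2 were above both WT libraries and library 3 was between them, while for Ddit3 library 3 was below both. Atf4 itself was at 369.6 and 569 CPM in WT XEN and at 989.6, 964 and 379 CPM in dXist XEN. Its log2 fold change of 0.71 ± 0.67 (adjusted p = 0.734, edgeR) was the smallest of the 7.

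All but 1 of the feedback and stress effectors had positive fold changes in XEN cells, with a median of 1.67. Stc2, a secreted glycoprotein induced by endoplasmic reticulum stress, was at 1.98 and 10.7 CPM in WT XEN and at 145, 167 and 1.02 CPM in dXist XEN. Ddit4 (REDD1), an inhibitor of mTORC1, was at 47.2 and 87.4 CPM in WT XEN and at 353, 263 and 38.1 CPM in dXist XEN. For both genes dXist libraries 1 and 2 were above the WT libraries and library 3 was below them. The log2 fold changes were 4.02 ± 1.54 for Stc2 and 1.67 ± 0.74 for Ddit4, with adjusted p of 0.420 and 0.464 (edgeR, Benjamini-Hochberg). Trib3, a pseudokinase that restrains ATF4, was at 12.3 and 95.7 CPM in WT XEN and at 276.5, 264 and 35.4 CPM in dXist XEN. Chac1, which degrades glutathione, was at 7.27 and 90.6 CPM in WT XEN and at 237, 244 and 31.4 CPM in dXist XEN. Both genes differed several-fold between the 2 WT libraries, and dXist library 3 lay between them. Their log2 fold changes were 1.80 ± 1.24 and 1.77 ± 1.30, with adjusted p of 0.624 and 0.649 (edgeR). Vldlr, a lipoprotein receptor, was the member of this role with a negative value, of -0.14.

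Of the enzymes, 10 of 11 had positive fold changes in XEN cells, with a median of 0.96. Aldh1l2, the mitochondrial 10-formyltetrahydrofolate dehydrogenase, was at 18.4 and 32.9 CPM in WT XEN and at 110.5, 109.7 and 51.8 CPM in dXist XEN. Every dXist library was above both WT libraries, and the log2 fold change was 1.80 ± 0.56 (adjusted p = 0.364, edgeR). Cbs was the exception in this role. It makes cystathionine from homocysteine and was at 2.14 and 3.25 CPM in WT XEN and at 0.962, 0.785 and 0.272 CPM in dXist XEN. Every dXist library was below both WT libraries, with a log2 fold change of -2.01 ± 0.68 (adjusted p = 0.392, edgeR). Cth, the next enzyme in the pathway to cysteine, was at 0.737 and 9.06 CPM in WT XEN and at 103.5, 79.3 and 1.32 CPM in dXist XEN. So Cth was high in dXist libraries 1 and 2, in which Cbs was low, and library 3 had little of either. Asns, which makes asparagine, was at 85.4 and 223 CPM in WT XEN and at 374, 336 and 203 CPM in dXist XEN. Its groups overlapped through library 3, with a log2 fold change of 0.96 ± 0.50 (adjusted p = 0.521, edgeR).

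The transporters held the largest fold of any member between the XEN groups, that of Slc7a11, and all 6 fold changes were positive with a median of 0.82. Slc7a11 (xCT) imports cystine in exchange for glutamate. It was at 0 and 0.0638 CPM in WT XEN, which is 2 counts in all, and at 46.0, 41.1 and 0 CPM in dXist XEN, which is 2535 counts. The ratio of these counts per total was 897, with a 95% counting interval of 248 to 7411. This interval covers counting error only, and the dXist libraries 1 and 2 held the reads while library 3 held none. The edgeR adjusted p was 0.329. Slc7a3 (CAT3), an importer of arginine and lysine on the X chromosome (chrX:101079210-101086020), was at 0.402 and 2.46 CPM in WT XEN. It was at 185.6, 63.0 and 0.950 CPM in dXist XEN. The log2 fold change was 5.81 ± 1.83 (adjusted p = 0.366, edgeR), with library 3 between the WT libraries. The remaining transporters, Slc7a5, Slc3a2, Slc7a1 and Slc6a9, had log2 fold changes from 0.54 to 0.92.

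The tRNA synthetases and the tRNA exporter Xpot had the smallest differences of the roles in XEN cells, with a median log2 fold change of 0.51 and 9 of 10 positive. Nars, the asparaginyl-tRNA synthetase, was at 228 and 442 CPM in WT XEN and at 733, 754 and 361 CPM in dXist XEN. Gars, the glycyl-tRNA synthetase, was at 183 and 388 CPM in WT XEN and at 607, 623 and 309.6 CPM in dXist XEN. For both, libraries 1 and 2 were above the WT libraries and library 3 was between them. The log2 fold changes were 0.86 ± 0.44 and 0.83 ± 0.45, with adjusted p of 0.519 and 0.539 (edgeR). Over all roles the libraries of the groups did not overlap for 4 members that were higher (Atf5, Aldh1l2, Gpt2 and Xpot), beside 13.6% of genes. They did not overlap for 1 that was lower (Cbs), beside 14.8%. Those 4 higher members are thus the ones for which dXist library 3 was also above both WT libraries.

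**Figure D2:**
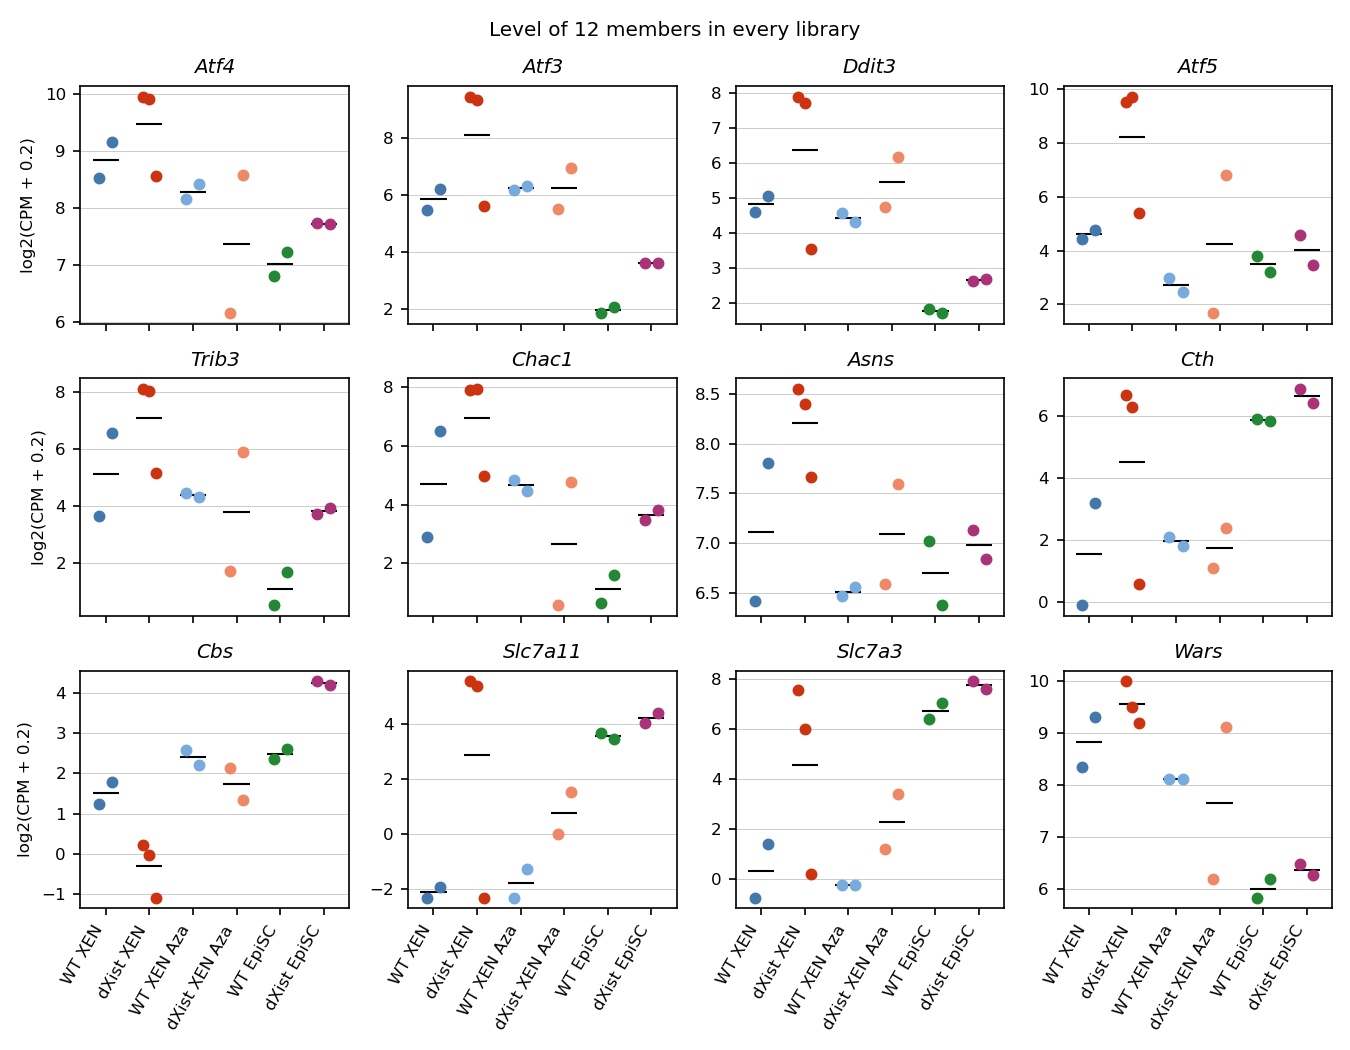
Points are single libraries and bars are group means of log2(CPM + 0.2) for 12 members in the 6 groups. In dXist XEN, Atf3 is at 705 and 645 CPM in libraries 1 and 2 and at 48.3 CPM in library 3, and Slc7a11 has 46.0, 41.1 and 0 CPM.

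The calls in XEN cells depended on dXist library 3. Without it, 6 members were called higher, beside 2.87% of the 17800 genes tested in either direction. Slc7a11 (adjusted p = 0.0136), Atf3 (log2 fold change 3.48, adjusted p = 0.0236), Stc2 (4.60, 0.0239), Ddit3 (2.95, 0.0284), Ddit4 (2.16, 0.0297) and Slc7a3 (6.39, 0.0305) were those 6 in edgeR's test. Leaving out WT XEN library 1 gave a median over the members of 0.42, and leaving out WT XEN library 2 gave 1.73, so the size of the median also depended on the WT library it was set against.

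Other stress lists were uneven around these members in XEN cells. Among 18 chaperone genes of the ATF6 and XBP1 branches all 18 fold changes were positive, with a median of 0.73 and none called. Hspa5 (BiP), the main chaperone of the endoplasmic reticulum, had a log2 fold change of 1.45, and Dnajb9, its co-chaperone, of 2.87. Relative to WT, the medians of this list were 1.09, 0.62 and 0.19 in dXist libraries 1, 2 and 3. The 16 eIF2 kinases and pathway genes had a median of 0.15, and 13 further ATF4-linked genes had one of 0.33, with 11 positive and none called. Cytosolic tRNA synthetases outside the member list, 11 in all, had a median of 0.07. The p53 target genes had 12 of 12 positive fold changes with a median of 1.10, and hypoxia target genes had 0 of 10 positive with a median of -1.11, again with none called. Among the dXist libraries the p53 and hypoxia lists set libraries 1 and 2 apart from library 3, as the members did, but between the WT libraries both lists were higher in WT XEN library 1 and the members in library 2. Summed p53 targets were 1566 and 888 CPM in WT XEN and 4029, 4196 and 953 CPM in dXist XEN, and summed hypoxia targets were 2652 and 1886 CPM against 773, 831 and 1952 CPM. Of the markers of other cell types, the summed level was lower in dXist libraries 1 and 2 for EpiSC and in all 3 for fibroblasts, but single markers were mixed. In each dXist library 5 of 8 EpiSC markers were below both WT libraries, beside 35.2%, 38.8% and 33.1% of all genes. Of 9 fibroblast markers 1, 2 and 2 were below both, while 5, 3 and 3 were above both, beside 39.9%, 37.1% and 30.5% of all genes. Summed EpiSC markers were 169 and 215 CPM in WT XEN and 46.0, 45.9 and 169 CPM in dXist XEN, and summed fibroblast markers 18.1 and 16.5 CPM against 3.37, 2.24 and 3.63 CPM. Their part in the result was not tested.

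**Figure D3:**
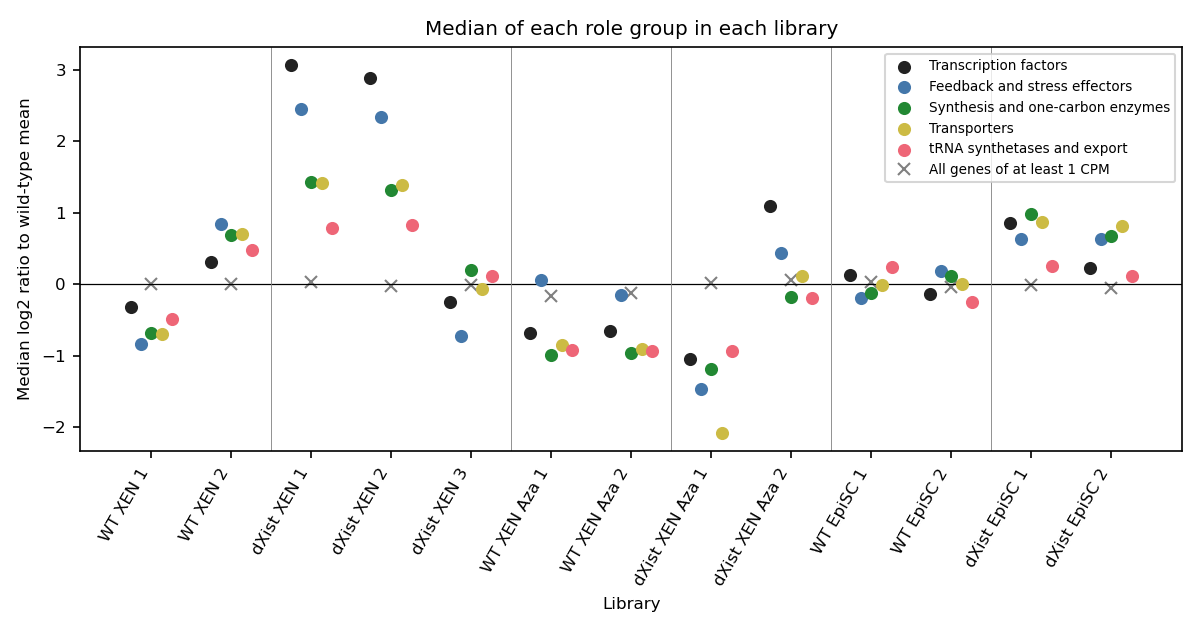
Each coloured point is the median over the members of a role, in 1 library, of the log2 ratio to the WT mean of the cell type, and grey crosses mark the median of all genes with a mean of at least 1 CPM. In dXist XEN libraries 1 and 2 the transcription factors are highest (3.06 and 2.89) and the tRNA genes lowest (0.78 and 0.82).

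In EpiSC with the heterozygous Xist deletion, Trib3, Chac1, Cbs and Atf3 were higher in both dXist libraries, from 3.33 fold for Atf3 to 6.84 fold for Trib3, and Nupr1 was lower in both. In the fit without a library-type term, 37 of 41 log2 fold changes were positive with a median of 0.63, beside a median of -0.003 over the 17132 genes tested. No member was called by edgeR's quasi-likelihood test with Benjamini-Hochberg adjustment, and 0% of all genes were. At an unadjusted p under 0.05 there were 14 members higher, beside 3.85% of genes, and 1 lower, beside 6.32%. DESeq2 called 6 members, all higher, beside 3.05% of genes. The libraries of the groups did not overlap for 24 higher members, beside 20.5% of genes, and for 1 lower member, beside 22.3%.

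Each EpiSC group held 1 polyA-like and 1 total-like library, and the replicate number coincided with that type, so a fit with library type as a term was made beside the pooled one. It called 13 members higher, beside 4.91% of genes, and 1 lower, beside 6.53%. This fit had 1 residual degree of freedom from 4 libraries, and edgeR took the spread of a typical gene wholly from the trend over all genes, so its p-values rest little on the members' own replicates. In a fit of all 13 libraries with the same term, 0 of the 41 members were called. Taken pair by pair, the median member was 0.80 higher on the log2 scale in the polyA-like dXist library and 0.52 higher in the total-like one. The sign was positive in 33 and 35 members, and in 31 members in both pairs.

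By role, the EpiSC calls with library type as a term were 2 of 7 transcription factors, 3 of 7 feedback effectors, 6 of 11 enzymes, 3 of 6 transporters and 0 of 10 tRNA genes. Atf3 was at 3.39 and 3.92 CPM in WT EpiSC and at 12.01 and 11.9 CPM in dXist EpiSC. Its log2 fold change was 1.74 ± 0.29 without the term (adjusted p = 0.178, edgeR) and 1.74 ± 0.37 with it (adjusted p = 0.000103). Nupr1 was at 15.6 and 12.9 CPM in WT EpiSC and at 5.87 and 7.501 CPM in dXist EpiSC, a log2 fold change of -1.07 ± 0.29 without the term (adjusted p = 0.335, edgeR) and -1.08 ± 0.36 with it (adjusted p = 0.0276). So the direction for Nupr1 was opposite to its direction in XEN cells. Atf4 was at 112 and 150.1 CPM in WT EpiSC and at 213 and 211 CPM in dXist EpiSC, with no overlap, and was called by neither fit (adjusted p = 0.515 and 0.132, edgeR). Ddit3 was at 3.39 and 3.10 CPM against 6.03 and 6.26 CPM and was also called by neither fit (adjusted p = 0.423 and 0.0822, edgeR).

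Among the feedback effectors in EpiSC, Trib3 was at 1.21 and 2.95 CPM in the WT libraries and at 13.04 and 14.8 CPM in the dXist libraries. Chac1 was at 1.38 and 2.86 CPM against 10.9 and 14.0 CPM. Vldlr was at 13.6 and 9.82 CPM against 28.6 and 27.5 CPM. In all 3 genes both dXist libraries were above both WT libraries. The log2 fold changes without the term were 2.77 ± 0.51 for Trib3, 2.58 ± 0.47 for Chac1 and 1.28 ± 0.28 for Vldlr, with adjusted p of 0.216, 0.202 and 0.259 (edgeR). With the term the adjusted p were 4.28e-11, 1.34e-09 and 0.00162. Taken by pair, the log2 ratio of Trib3 was 3.23 between the polyA-like libraries and 2.25 between the total-like ones, and that of Chac1 was 2.81 and 2.22.

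The 11 enzymes all had positive fold changes in EpiSC, with a median of 0.94. Cbs was at 4.94 and 5.86 CPM in WT EpiSC and at 19.3 and 18.1 CPM in dXist EpiSC, a log2 fold change of 1.82 ± 0.28 without the term (adjusted p = 0.160, edgeR) and 1.82 ± 0.36 with it (adjusted p = 1.67e-05). Pck2, the mitochondrial phosphoenolpyruvate carboxykinase, was at 17.0 and 31.8 CPM in WT EpiSC and at 61.2 and 67.1 CPM in dXist EpiSC (adjusted p = 0.332 without and 2.60e-05 with the term, edgeR). Gpt2, the mitochondrial alanine aminotransferase, was at 14.1 and 17.0 CPM against 33.9 and 28.6 CPM (adjusted p = 0.315 and 0.0143, edgeR). Psph, the last enzyme of serine synthesis, was at 10.4 and 15.7 CPM against 26.1 and 23.2 CPM (adjusted p = 0.435 and 0.0328, edgeR). The dXist libraries were above the WT libraries in each of these genes. Aldh1l2 and Psat1 were the other enzymes called with the term (adjusted p = 0.0466 and 0.0481, edgeR). Asns was at 130.0 and 82.7 CPM in WT EpiSC and at 140.0 and 114 CPM in dXist EpiSC, so its groups overlapped, and it was called by neither fit (adjusted p = 0.812 and 0.582, edgeR).

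The EpiSC transporters called with the term were Slc7a5, Slc7a3 and Slc6a9. Slc7a5 (LAT1), the importer of large neutral amino acids, was at 109 and 84.0 CPM in WT EpiSC and at 272 and 168 CPM in dXist EpiSC (adjusted p = 0.378 without and 0.00462 with the term, edgeR). Slc7a3 was at 85.2 and 131 CPM against 238.5 and 193 CPM (adjusted p = 0.438 and 0.0179, edgeR). Slc6a9, the glycine transporter GlyT1, was at 3.50 and 4.16 CPM against 8.15 and 7.78 CPM (adjusted p = 0.349 and 0.0338, edgeR). None of these had overlapping groups. Slc7a11 was at 12.4 and 10.7 CPM in WT EpiSC and at 16.1 and 20.5 CPM in dXist EpiSC, a log2 fold change of 0.69 that passed neither fit. The tRNA genes had a median log2 fold change of 0.18, and the 2 with the smallest p were Yars, at 62.7 and 74.7 CPM against 110.3 and 85.8 CPM, and Wars, at 57.1 and 72.7 CPM against 88.9 and 77.2 CPM.

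Around the members in EpiSC, 6 of 12 further ATF4-linked genes were called higher with library type as a term, beside 4.91% of genes, among them Slc1a4 (log2 fold change 1.44), Slc1a5 (1.39) and Pycr1 (1.16). Without the term 0 of the 12 were called. Chaperones of the endoplasmic reticulum were not higher there. Of the 18, 4 had positive fold changes. With the term 2 of the 18, Dnajb9 (-1.09) and Pdia4 (-0.94), were called lower, beside 6.53% of genes. Eif2ak2 (PKR), the eIF2 kinase that senses viral RNA, was also called lower with it (-1.31), as 1 of 16 eIF2 pathway genes. Without the term 0 genes of either list were called. Fibroblast markers moved with the EpiSC groups. Their summed level was 795 and 677 CPM in WT EpiSC and 228 and 166 CPM in dXist EpiSC. Of 9 markers 7 were called lower with the term, beside 6.53% of genes, and 0 without it. Lum was at 0 in both dXist libraries and Col3a1 was at 5.62 and 4.79 CPM, against 135 and 148 CPM in WT EpiSC. The part of these cells or of this RNA in the members' differences was not tested.

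**Figure D4:**
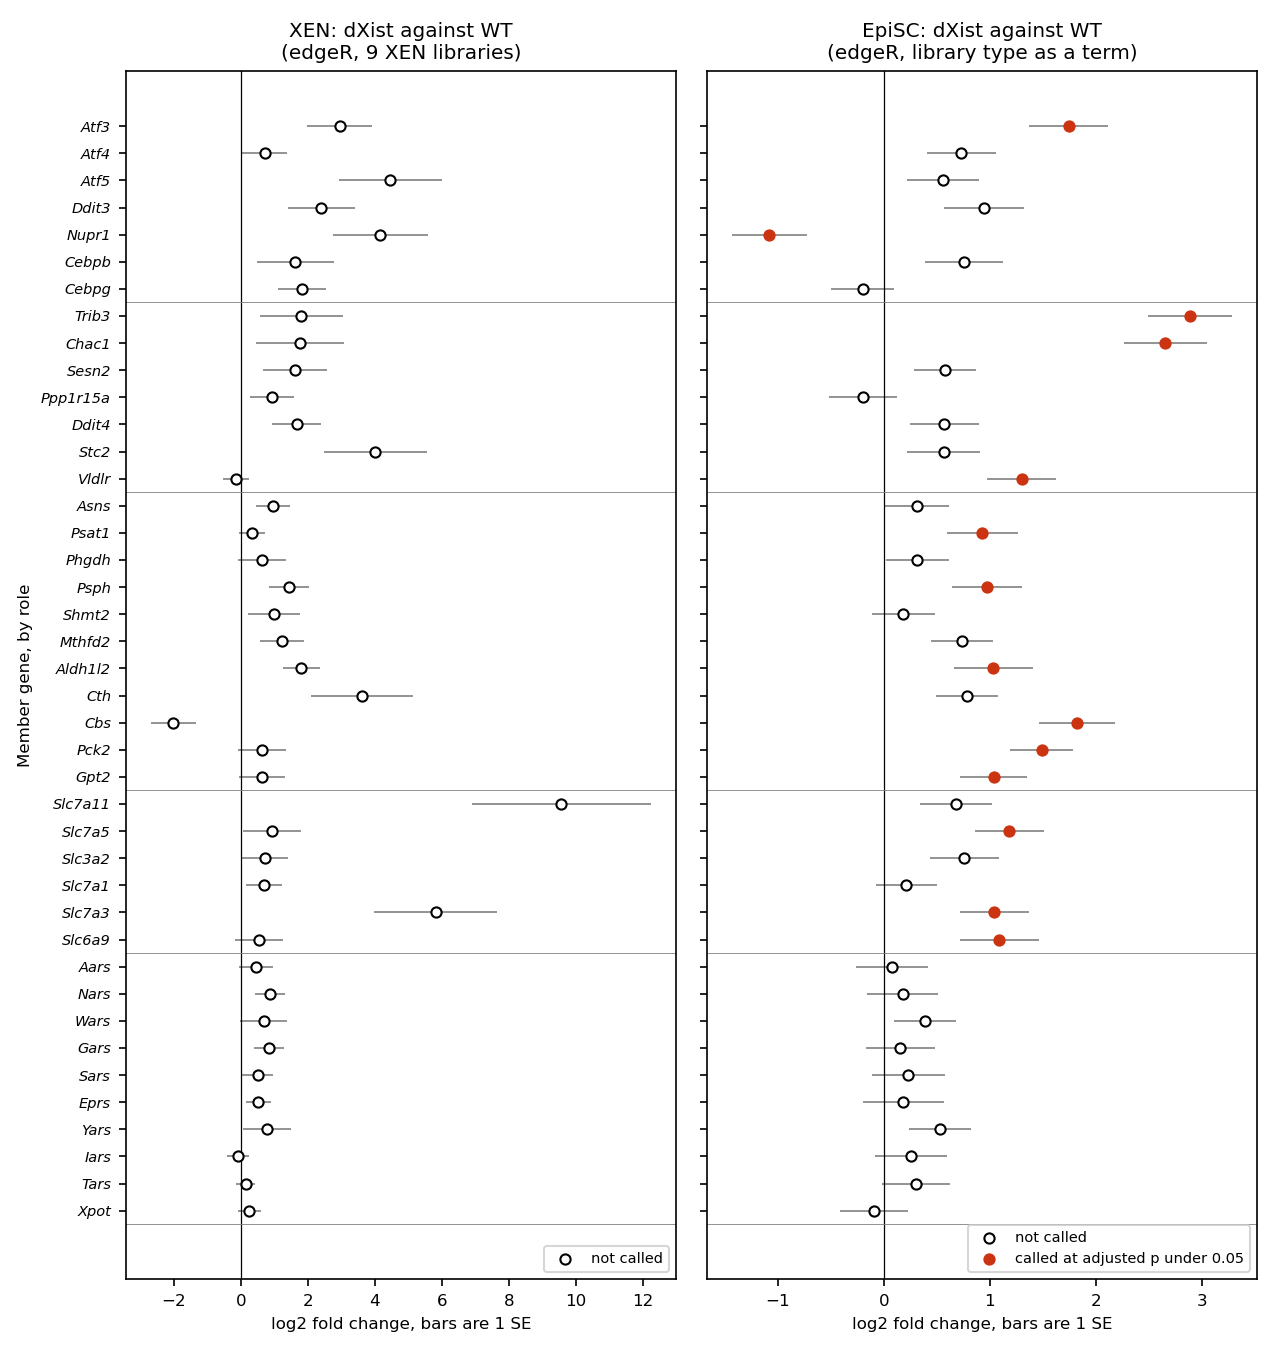
Points are the log2 fold change of dXist against WT with bars of 1 SE, for XEN cells without a library-type term (left) and for EpiSC with it (right), in the 41 members by role. Red marks an adjusted p under 0.05, which no member has in XEN and 14 have in EpiSC with the term. In EpiSC without the term no member has it, so the panels show unlike fits and their calls cannot be compared. The Trib3 values are 1.80 in XEN and 2.89 in EpiSC.

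The effect of the deletion was compared between the cell types, which were grown in different media, by an interaction term. No member passed an adjusted p under 0.05 (edgeR, Benjamini-Hochberg), beside 0.0101% of 19733 genes, so no member's difference in effect between XEN and EpiSC was called. There were 2 members with a positive difference at an unadjusted p under 0.05 (Cbs and Vldlr), beside 5.17% of genes, and 3 with a negative one (Slc7a11, Nupr1 and Atf5), beside 5.17%. DESeq2 called 1 member with a positive and 1 with a negative difference, beside 2.9% of genes. The smallest unadjusted p belonged to Cbs, lower in dXist XEN and higher in dXist EpiSC, with a difference of 3.82 ± 0.82 and an adjusted p of 0.208. Nupr1 had the reverse pattern, with a difference of -5.26 ± 1.54 and an adjusted p of 0.339. For the 18 chaperone genes the difference had a median of -1.17 with 0 positive, beside -0.49 for the members. The members' median ran from -1.22 without WT XEN library 2 to -0.03, with 20 of 41 positive, without WT XEN library 1. Without dXist XEN library 3, 1 member had a called positive and 7 a called negative difference, beside 3.44% of genes in either direction.

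Between the unmodified cell types, XEN cells held more mRNA of most members than EpiSC. The cell types were grown in different media, so cell type and medium cannot be told apart here. Of the 41, 17 were called lower in WT EpiSC than in WT XEN and 0 higher by edgeR's quasi-likelihood test with Benjamini-Hochberg adjustment, beside 14.1% of 19733 genes called lower and 16.8% higher. The median log2 fold change was -1.12, beside 0.13 for all genes, and 33 of 41 values were negative. At an unadjusted p under 0.05 there were 22 members lower, beside 20.6% of genes, and 2 higher (Slc7a11 and Slc7a3), beside 24%, and DESeq2 called 19 lower and 2 higher, beside 38.1% of genes in either direction. The median was -0.65 without WT XEN library 2, with 14 members positive, and -1.74 without WT XEN library 1. The calls covered 2 of 7 transcription factors, 4 of 7 feedback effectors, 6 of 11 enzymes, 4 of 6 transporters and 1 of 10 tRNA genes. The libraries of the groups did not overlap for 26 lower members, beside 30% of genes, and for 6 higher members, beside 36.3%.

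Vldlr had the smallest adjusted p between the cell types. It was at 296 and 145 CPM in WT XEN against 13.6 and 9.82 CPM in WT EpiSC, and fell by 4.23 ± 0.50 on the log2 scale (adjusted p = 0.000474, edgeR). Gpt2 was at 77.6 and 118 CPM against 14.1 and 17.0 CPM and fell by 2.65 ± 0.32 (adjusted p = 0.000537, edgeR). Wars, the tryptophanyl-tRNA synthetase and the only tRNA gene called, was at 324 and 631 CPM against 57.1 and 72.7 CPM and fell by 2.88 ± 0.44 (adjusted p = 0.00168, edgeR). None of these had overlapping libraries. Slc7a1 (CAT1), the general importer of cationic amino acids, was at 269 and 427 CPM against 75.4 and 48.0 CPM and fell by 2.50 ± 0.45 (adjusted p = 0.00378, edgeR). Aldh1l2 was at 18.4 and 32.9 CPM against 6.10 and 3.34 CPM (adjusted p = 0.00608, edgeR). Vldlr, Gpt2, Wars, Slc7a1 and Aldh1l2 were called lower each time 1 of the 4 WT libraries was left out.

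The remaining calls between cell types depended on single libraries. There were 17 calls without WT XEN library 1, beside 18.1% of genes in either direction, and 6 without WT XEN library 2, beside 19.6%. There were 5 without WT EpiSC library 1, beside 14.4%, and 7 without WT EpiSC library 2, the total-like one, beside 23.1%. Atf4 fell by 1.84 ± 0.49 (adjusted p = 0.0202, edgeR) and Atf3 by 4.02 ± 1.03 (adjusted p = 0.0190), and both were called without WT XEN library 1 but not when any 1 of the other libraries was left out. Trib3 fell by 4.71 ± 1.23 (adjusted p = 0.0211), Chac1 by 4.54 ± 1.31 (adjusted p = 0.0317) and Ppp1r15a, the eIF2 phosphatase subunit GADD34, by 2.15 ± 0.63 (adjusted p = 0.0298). Their WT EpiSC levels were 1.21 and 2.95 CPM for Trib3, 1.38 and 2.86 CPM for Chac1, and 19.5 and 22.9 CPM for Ppp1r15a, against 93.2 and 94.1 CPM of Ppp1r15a in WT XEN. Pck2 was at 73.5 and 208.5 CPM in WT XEN against 17.0 and 31.8 CPM in WT EpiSC (adjusted p = 0.00768), and Psph at 34.4 and 86.4 CPM against 10.4 and 15.7 CPM (adjusted p = 0.0259). Slc6a9 was at 13.4 and 44.2 CPM against 3.50 and 4.16 CPM (adjusted p = 0.00630), Slc3a2 at 351 and 747 CPM against 109.9 and 156 CPM (adjusted p = 0.0292), and Slc7a5 at 183 and 706 CPM against 109 and 84.0 CPM (adjusted p = 0.0357), all by edgeR. The EpiSC libraries were below both XEN libraries in each of these genes, and Psat1 and Mthfd2 were the other enzymes called. Ddit3 had a log2 fold change of -3.13 (adjusted p = 0.0543) and Asns of -0.53 (adjusted p = 0.410), both from edgeR.

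Of the 8 members with positive values in WT EpiSC against WT XEN, none was called by edgeR, and Slc7a11, Slc7a3 and Cth had the largest. With all 13 libraries and library type as a term, 2 members (Slc7a11 and Slc7a3) were called higher and 11 lower, beside 22.1% of genes in either direction. Slc7a11 was at 12.4 and 10.7 CPM in WT EpiSC against 2 counts in WT XEN (adjusted p = 0.0515, edgeR). Slc7a3 was at 85.2 and 131 CPM against 0.402 and 2.46 CPM (adjusted p = 0.0510, edgeR), and Cth was at 60.4 and 57.8 CPM against 0.737 and 9.06 CPM (adjusted p = 0.142, edgeR). The EpiSC libraries were above the XEN libraries in each. They were also above them for Nupr1, Ddit4 and Cbs, while the libraries overlapped for Stc2 and Eprs. Lists outside the members also differed. In the fit of the 9 untreated libraries, 8 of 13 immediate early genes were called lower in EpiSC, beside 14.1% of genes. So were 7 of 18 chaperone genes of the ATF6 and XBP1 branches, 5 of 13 further ATF4-linked genes, 4 of 10 hypoxia targets and 4 of 11 further cytosolic tRNA synthetases. Called higher were 8 of 9 fibroblast markers and 6 of 10 NRF2 target genes, beside 16.8% of genes. Summed fibroblast markers were 795 and 677 CPM in WT EpiSC against 18.1 and 16.5 CPM in WT XEN, and their part in the members' levels was not tested. Per kilobase of exon, which allows levels of different genes to be set side by side, Atf4 was the highest member in WT XEN at 199 CPM per kb, followed by Slc3a2 at 156 and Wars at 139. In WT EpiSC the highest was Ddit4 at 78.5 CPM per kb, followed by Gars at 62.4 and Atf4 at 55.7.

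**Figure D5:**
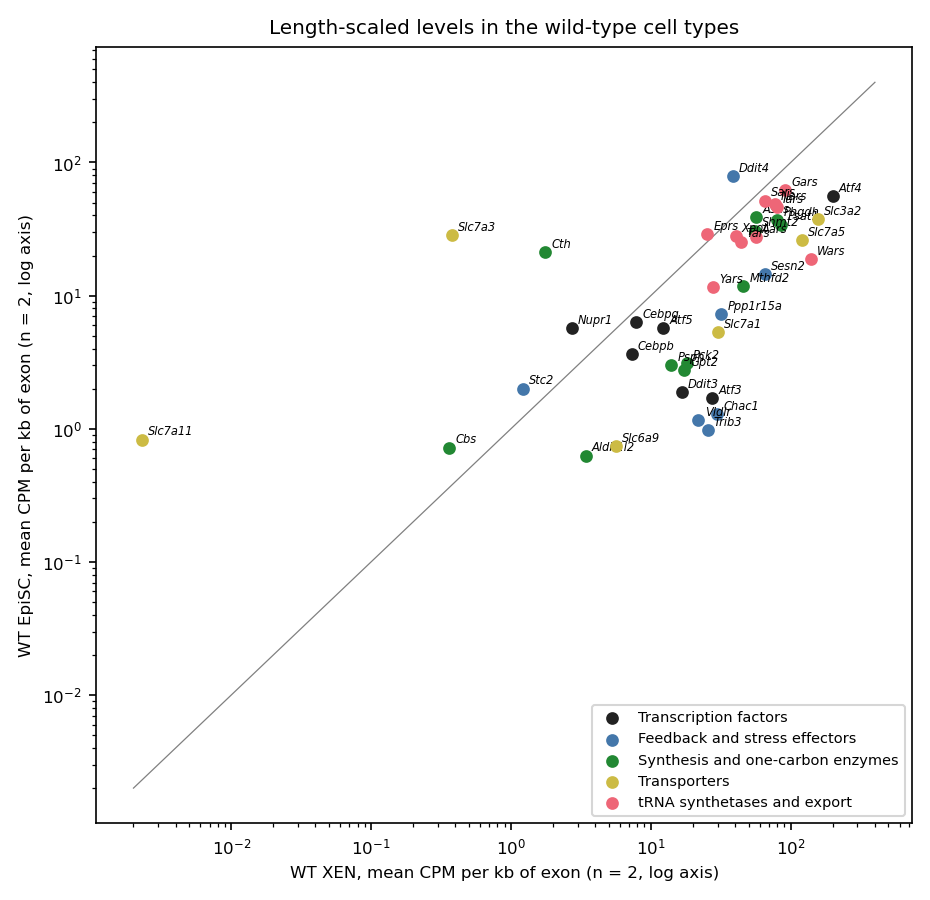
Mean level of each member in WT EpiSC (vertical) against WT XEN (horizontal), in CPM per kb of exon on log axes, with the line of equal levels. Most members lie below the line, and Slc7a11, Slc7a3 and Cth lie farthest above it.

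Aza treatment of WT XEN cells went with lower levels of most members, but both treated WT libraries were total-like and both untreated ones polyA-like, so the agent and the kind of library cannot be told apart. No member was called (edgeR, Benjamini-Hochberg), beside 0.582% of 18393 genes. The median log2 fold change was -0.90, beside -0.04 for all genes, with 35 of 41 negative. At an unadjusted p under 0.05 there were 6 members lower, beside 3.72% of genes, and 0 higher, beside 8.67%. DESeq2 called 1 member, lower, beside 3.6% of genes. The libraries of the groups did not overlap for 27 lower members, beside 31.7% of genes, and for 2 higher members, beside 28.1%. Iars, the isoleucyl-tRNA synthetase, had the smallest p, at 375 and 462 CPM untreated against 179.5 and 166 CPM treated (log2 fold change -1.19 ± 0.36, adjusted p = 0.233, edgeR). Mthfd2, a mitochondrial folate enzyme, was at 89.3 and 231 CPM against 49.8 and 41.0 CPM (-1.74 ± 0.71, adjusted p = 0.362, edgeR). Psat1 was at 238 and 489 CPM against 168 and 169.7 CPM, Xpot at 242 and 246 CPM against 113 and 119.7 CPM, and Slc7a5 at 183 and 706 CPM against 122 and 129.9 CPM. Treated libraries were below untreated ones in all of these genes. Atf5 was at 7.64 and 5.27 CPM treated, Nupr1 at 2.16 and 2.15 CPM and Slc7a1 at 184 and 155 CPM, each below both untreated libraries. Ddit4 was at 103.5 and 107.9 CPM treated, above both untreated libraries, while Trib3, at 21.6 and 19.7 CPM, Chac1, at 28.6 and 21.9 CPM, and Asns, at 88.2 and 94.0 CPM, lay between them. Ddit3 was at 23.6 and 19.7 CPM treated, against 24.02 and 32.8 CPM. Atf4 was at 287 and 341 CPM after treatment, below both untreated libraries, with a log2 fold change of -0.50 (adjusted p = 0.829, edgeR). The median of -0.90 became -0.24 when WT XEN library 2 was left out. Other lists moved with the treated WT libraries, with 0 genes called in each. The 8 XEN markers all had negative fold changes, with a median of -0.62, as did the 11 further cytosolic tRNA synthetases, with a median of -0.57, while 10 of 12 p53 targets were positive. Their part in the result was not tested.

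In dXist XEN cells the treated libraries were both polyA-like but far apart. The library labelled treated dXist 1 had a median member 1.19 below the WT mean on the log2 scale, and the library labelled treated dXist 2, in which Xist was at 241.8 CPM, stood 0.08 above it. Against untreated dXist XEN, 39 of 41 log2 fold changes were negative with a median of -1.74, beside -0.02 for all genes. No member was called (edgeR, Benjamini-Hochberg), beside 0.0761% of genes. At an unadjusted p under 0.05 there were 26 members lower, beside 12.4% of genes, and 1 higher, beside 14.4%. DESeq2 called 1 member higher and 20 lower, beside 17.2% of genes in either direction. The libraries of the groups did not overlap for 17 lower members, beside 18.4% of genes, and for 1 higher member (Cbs), beside 23.9%. By role the medians were -1.90 for transcription factors, -2.36 for feedback effectors, -2.04 for enzymes, -1.97 for transporters and -1.29 for tRNA genes. Other lists moved in either direction, with 0 genes called in each. Of 18 chaperone genes of the ATF6 and XBP1 branches 17 were negative (median -0.94), as were 7 of 8 XEN markers (-0.61) and 10 of 11 further cytosolic tRNA synthetases (-0.89). Positive values were found for 8 of 10 NRF2 target genes (median 0.80) and 6 of 10 hypoxia targets (0.40). Only 4 of 8 EpiSC markers passed the filter on low counts, and 3 of these were positive (median 1.76). Summed over all 8, EpiSC markers were 46.0, 45.9 and 169 CPM in untreated and 102 and 76.0 CPM in treated dXist XEN. The treated libraries thus lay between untreated library 3 and the others. The part of these lists in the result was not tested.

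Psph had the smallest p for treatment in dXist XEN, at 210.1, 222.5 and 62.7 CPM untreated and at 27.1 and 49.0 CPM treated (log2 fold change -2.24 ± 0.63, adjusted p = 0.0859, edgeR). Psat1, which precedes it in serine synthesis, was at 564, 423 and 402 CPM against 149.5 and 225 CPM (-1.44 ± 0.41, adjusted p = 0.0871, edgeR). In both genes the treated libraries were below all 3 untreated ones. Chac1 was at 237, 244 and 31.4 CPM untreated and at 1.29 and 27.0 CPM treated, again without overlap (-3.69 ± 1.44, adjusted p = 0.147, edgeR). Stc2 was at 7.90 and 8.40 CPM treated and so lay between untreated library 3 and the other two (-3.81 ± 1.52, adjusted p = 0.153, edgeR). Atf3 was at 45.8 and 123 CPM treated and Atf4 at 71.4 and 381 CPM, with adjusted p of 0.131 and 0.132 (edgeR). For both, the library labelled treated dXist 1 was below every untreated dXist library and the library labelled treated dXist 2 was not. Treated levels were 190.4 and 272 CPM for Nars, 158 and 233 CPM for Gars, 99.1 and 326 CPM for Slc7a1 and 96.1 and 192 CPM for Asns. In these genes both treated libraries were below every untreated dXist library. Slc3a2, the heavy chain that partners Slc7a5 and Slc7a11, at 98.2 and 395 CPM, and Trib3, at 3.06 and 59.3 CPM, followed the pattern of Atf3 and Atf4. For Ddit3, at 26.7 and 72.1 CPM, both treated libraries lay between untreated library 3 and the other untreated libraries.

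These values depended on which treated and untreated dXist libraries were set against each other. Without the library labelled treated dXist 2, 25 members were called lower, beside 23.9% of all genes called in either direction, and the median was -3.28. Without the library labelled treated dXist 1, 0 were called and the median was -1.20. Without untreated dXist library 3, 5 were called lower, namely Psph, Slc7a11, Ddit4, Stc2 and Atf3, beside 2.33% of genes. The test of whether treatment acted differently in the genotypes called 0 members, beside 0.245% of genes, with a median difference of -0.65. There were 0 members with a positive difference at an unadjusted p under 0.05, beside 4.32% of genes, and 1 with a negative one (Atf3), beside 3.69%, and DESeq2 called 0, beside 1.52%. Without the library labelled treated dXist 2, 3 members had a called negative difference (Atf4, Gpt2 and Wars), beside 8.1% of genes in either direction, and the median was -2.36. The median was -0.05 without the library labelled treated dXist 1, -1.44 without WT XEN library 2 and -0.32 without WT XEN library 1.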

How the data were processed

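The deposited table holds raw counts of reads per gene, not normalised. Per the submitters' processing notes the tools were featureCounts 2.0.1, STAR 2.7.9a and FastQC, with GRCm38 (mm10) as genome build, and the labels' protocols give Trizol total RNA with NEBNext Ultra or TruSeq stranded kits. No source used here states the counting strand, the treatment of multi-mapped reads, the annotation release or the kit of each library, so counts of members with antisense genes or near-identical copies are uncertain. GENCODE vM21 (GRCm38) gave a symbol for 38240 of 38377 identifiers (99.64%).

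Counts were tested with edgeR 4.0.16 in R 4.3.3 (TMM scaling, filterByExpr, robust quasi-likelihood F test, Benjamini-Hochberg over all genes, called under 0.05). One fit held the 9 XEN libraries (5 residual degrees of freedom), one the 4 EpiSC libraries (2) and one the 9 untreated libraries (5). Levels are CPM scaled by TMM over 13 libraries, and the SE was obtained by dividing the size of the log2 fold change by the root of its F statistic. Library type was set at 5% of counts from mitochondrial ribosomal RNA and Rn7sk. The scripts were tested on simulated data. Alternatives were DESeq2 1.42.0, RLE size factors, no filter on low counts, a replicate block, library type as a term, and leaving out each library.

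Same-numbered libraries correlated at 0.753 in their deviations in EpiSC, where the number marks library type. In XEN the correlations were -0.046 to 0.134, with 0.054 between untreated and treated dXist libraries, whose titles share names. Within groups no pair of libraries was a duplicate, and pairs across groups were not compared. The treated WT XEN libraries, which were also the shallowest, lay closest. Their counts differed by a chi-square per gene of 3.89, against 75.5 to 523.9 in the other pairs. Whether they were separate cultures is not stated. Named members were those called, at most 4 per role and comparison, or else the 2 with the smallest p per role, and always Atf4, Ddit3, Trib3, Asns and Chac1. A few others (such as Atf5, Cth and Vldlr) were named after their values were seen. The members and lists were chosen with earlier results of these data known.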

Additional observations from a re-analysis of the deposited data

Results flagged for a closer look

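For 7 members every library of 1 group lay above the mean log level of its controls and every library of the other group below that of its own, and the difference was tested by an interaction term (edgeR's quasi-likelihood test, Benjamini-Hochberg over all genes). None passed. For the deletion, EpiSC minus XEN, the log2 difference was -5.26 ± 1.54 (SE) for Nupr1 (adjusted p = 0.339) and 3.82 ± 0.82 for Cbs (adjusted p = 0.208).

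For Aza treatment, dXist XEN minus WT XEN, the log2 difference was -3.03 ± 1.32 for Atf3 (adjusted p = 0.620, edgeR). It was -2.18 ± 1.05 for Ddit4 (adjusted p = 0.622, edgeR) and -4.12 ± 2.04 for Stc2 (adjusted p = 0.630, edgeR). It was -3.9 ± 2.08 for Cth (adjusted p = 0.650, edgeR) and 0.27 ± 0.60 for Vldlr (adjusted p = 0.915, edgeR). In these comparisons the treated WT libraries were total-like, and the library labelled treated dXist 2 had 241.8 CPM of Xist. Without that library the differences were -3.99 for Atf3, -2.31 for Ddit4, -4.23 for Stc2, -4.83 for Cth and 0.12 for Vldlr, with adjusted p from 0.181 for Atf3 to 0.954 for Vldlr (edgeR).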

How the results depend on the processing

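Among the alternatives for counts of members called, 58 stayed at 0 where the reported count was 0, or within 1.5 times it otherwise, and 27 did not. The reported count was 0 in every comparison but WT EpiSC against WT XEN. The medians over members were judged by a different limit, by which 76 alternatives were labelled the same and 9 moved. Medians labelled the same could still change by more than 1.5 times. In dXist against WT XEN the median of 0.92 became 0.42 without WT XEN library 1. The share of all genes called is given after each count. DESeq2 called 5 members in dXist against WT XEN (3.2%), 1 in Aza against untreated WT XEN (3.6%), 21 in Aza against untreated dXist XEN (17.2%), 6 in dXist against WT EpiSC (3.05%) and 2 in the difference of deletion effects (2.9%). Without a filter on low counts, the same comparisons had 14 (1.92%), 5 (2.09%), 31 (7.71%), 6 (2.23%) and 8 (1.76%) members called, and the difference of Aza effects had 4 (0.944%). With all 13 libraries and library type as a term, 1 member (Cbs, higher) was called in Aza against untreated dXist XEN (6.68%). The cause of these differences was not tested.

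With the replicate number as a block, 8 members were called in dXist against WT XEN (2%) and 4 in Aza against untreated dXist XEN (0.712%). In the same pairing, 14 were called in dXist against WT EpiSC (11.4%), 26 in WT EpiSC against WT XEN (5 higher, 21 lower; 40%) and 7 in the difference of deletion effects (3.77%). Chac1 turned to 0.15 on the log2 scale for Aza in WT XEN and to -0.14 for the difference of deletion effects under the block. The titles of the treated dXist XEN libraries repeat those of untreated libraries 1 and 2, and untreated library 3 has no treated partner. Whether a shared name means the same line is not stated. By name, all members but Cbs and Vldlr were lower after treatment in both pairs, such as Psph (log2 ratio -2.94 and -2.18) and Atf4 (-3.79 and -1.34). The block also ties the other XEN libraries, which share only a number, and has no basis in the design there.

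Leaving out each library in turn gave 0 to 6 members called in dXist against WT XEN and 0 to 25 in Aza against untreated dXist XEN. It gave 0 to 3 in the difference of Aza effects, 0 to 2 in dXist against WT EpiSC, 5 to 17 in WT EpiSC against WT XEN and 0 to 8 in the difference of deletion effects. A lone library left in a group is assumed there to vary like the other groups. For Aza in WT XEN the log2 fold change ran from -2.16 to 0.77 for Trib3, -1.24 to 0.12 for Asns and -1.79 to 1.83 for Chac1, turning without WT XEN library 2. That of Asns ran from -1.36 to 0.019 in the difference of Aza effects and from -1.08 to 0.37 in WT EpiSC against WT XEN. The difference of deletion effects ran from -0.39 to 0.30 for Atf4, -1.22 to 1.81 for Trib3 and -1.999 to 1.71 for Chac1. That of Atf4 was 0.023 without the filter on low counts. The cause of these turns was not tested.

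Groups of 2 or 3 libraries limit what can be called, and WT XEN libraries 1 and 2 differed from each other in nearly all members. In the shallowest library a member below 0.513 CPM rests on fewer than 3 counts.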
